A study of Homo sapiens with 6 samples.

Results

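The genes described here are the transcriptional coactivators YAP1 and WWTR1 (the gene of TAZ), the DNA-binding partners TEAD1, TEAD3 and TEAD4, and 5 genes widely used as readouts of the complex, CCN1, CCN2, ANKRD1, LATS2 and AMOTL2. They were chosen by symbol, and all 10 were found among the 20442 genes of the count table. RNA was sequenced from T24, a cell line established from a human bladder tumour and labelled as tumor epithelial cells. One group of 3 samples received a control siRNA (si-NC, genotype entered as NC knockdown), the other group of 3 an siRNA that targets KNSTRN (si-KNSTRN), whose product sits at the mitotic spindle and kinetochore. In both, cells adhered for 24 h and the siRNA then acted for 24 h. The submitters call the 3 libraries per group biological replicates, and the comparison asks how loss of KNSTRN transcript changes gene expression in these cells.

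YAP and TAZ are the end point of the Hippo pathway. The kinases MST1 and MST2 activate LATS1 and LATS2, which phosphorylate YAP and TAZ and so keep them out of the nucleus. Unphosphorylated YAP and TAZ enter the nucleus, bind TEAD factors and raise transcription of growth, matrix and cytoskeletal genes, among them LATS2 and AMOTL2, which feed back to restrain them. Cell density, stretch and the actin cytoskeleton set this balance largely through phosphorylation and location of the proteins, which RNA counts do not measure.

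Libraries held 16386799 to 20596074 counted reads, and 3 reads corresponded to 0.148 to 0.187 CPM (counts relative to library size, scaled by TMM, the trimmed mean of M values). KNSTRN itself stood at 38.3, 41.2 and 41.9 CPM in si-NC and 13.6, 13.6 and 12.2 CPM in si-KNSTRN libraries 1 to 3. Its log2 fold change was -1.62 with an SE of 0.07 (adjusted p = 1.7e-11, edgeR's quasi-likelihood test). Of the 6 epithelial markers, KRT7, KRT8 and KRT18 carried nearly all reads, EPCAM was under 1 CPM and CDH1 had no read. Of 6 markers of differentiated urothelium, PPARG, a nuclear receptor, rose from 28.7 to 44.8 CPM on average and carried nearly all of their sum (28.7 to 32.8 CPM in si-NC, 44.3 to 49.2 CPM in si-KNSTRN). The uroplakin UPK1A was called lower from a mean of 0.832 CPM, GATA3 was not called, and UPK3A had no read. The summed epithelial level was 2834 to 3001 CPM in si-NC and 3077 to 3244 CPM in si-KNSTRN. Of 6 mesenchymal markers all 5 tested were lower, with sums of 21995 to 23864 and 17085 to 18383 CPM, and COL1A2 had no read. Endothelial markers summed to 0.549 to 1.67 CPM over all libraries, and of 4 immune markers CD68 alone passed the low-count filter while CD3E had no read. CD68 was higher, at 32.6 ± 2.81 and 45.4 ± 1.29 CPM (SD, n = 3), and made up nearly all of the immune sum.

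By RefSeq (GRCh38.p14) the coactivator genes lie at chr11:102110447-102233424 (YAP1) and chr3:149517235-149724788 (WWTR1), and the TEAD genes at chr11:12674421-12944737 (TEAD1), chr6:35473597-35497079 (TEAD3) and chr12:2959397-3040676 (TEAD4). The targets lie at chr1:85580761-85583950 (CCN1), chr6:131948176-131951372 (CCN2), chr10:90912096-90921087 (ANKRD1), chr13:20973036-21061586 (LATS2) and chr3:134355345-134375417 (AMOTL2). All 10 are protein-coding, and none overlaps another gene that was tested. YAP1, WWTR1, TEAD1 and CCN2 overlap a divergent or antisense transcript, whose reads cannot be told apart from theirs where counting ignored strand.

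Sequence upstream of 4 of these genes is shown because TEAD proteins recognise the word GGAATG. Each of the 4 holds it, on either strand, before a start site. Windows from 250 bases before to 50 bases after the start came from RefSeq (GRCh38.p14), where 7 of the 10 genes matched, with 9 windows. TEAD1, TEAD4 and CCN1 had no window among the promoter sequences used, though RefSeq places these genes as given above. The 250 bases before the start are printed 5′ to 3′ on the strand of the gene, with GGAATG or its reverse complement CATTCC in capitals.
CCN2, chr6:131951373-131951622, minus strand: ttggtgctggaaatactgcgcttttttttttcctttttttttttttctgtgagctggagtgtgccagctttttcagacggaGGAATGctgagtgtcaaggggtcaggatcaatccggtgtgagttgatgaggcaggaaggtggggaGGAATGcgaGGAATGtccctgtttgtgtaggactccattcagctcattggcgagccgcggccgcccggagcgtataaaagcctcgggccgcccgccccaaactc
ANKRD1, chr10:90921088-90921337, minus strand: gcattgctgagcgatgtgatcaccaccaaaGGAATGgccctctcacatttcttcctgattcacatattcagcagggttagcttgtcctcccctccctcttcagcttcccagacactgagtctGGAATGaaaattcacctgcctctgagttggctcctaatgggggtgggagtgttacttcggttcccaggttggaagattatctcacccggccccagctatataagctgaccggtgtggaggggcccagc
AMOTL2, chr3:134374448-134374697, minus strand: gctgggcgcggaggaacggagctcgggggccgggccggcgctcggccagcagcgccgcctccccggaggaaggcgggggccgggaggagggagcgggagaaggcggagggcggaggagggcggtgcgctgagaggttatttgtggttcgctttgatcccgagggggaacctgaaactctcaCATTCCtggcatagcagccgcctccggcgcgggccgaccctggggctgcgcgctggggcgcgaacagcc
YAP1, chr11:102110197-102110446, plus strand: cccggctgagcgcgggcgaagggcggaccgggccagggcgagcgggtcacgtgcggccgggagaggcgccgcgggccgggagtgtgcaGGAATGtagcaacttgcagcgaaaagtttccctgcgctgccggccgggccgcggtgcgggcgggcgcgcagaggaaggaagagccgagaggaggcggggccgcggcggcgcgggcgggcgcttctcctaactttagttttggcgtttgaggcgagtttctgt

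CCN2 held GGAATG 3 times, beginning at -169, -104 and -95 from the start. ANKRD1 held it at -220 and -128, YAP1 at -162, the downstream of the AMOTL2 starts held CATTCC at -69, and LATS2 held GGAATG at 10 bases after its start. The 2 windows of WWTR1, that of TEAD3 and the other window of AMOTL2 held neither word. Over all 35116 windows of this length, 14.0% held the word on either strand at least 1 time, 1.37% at least 2 times and 0.128% at least 3 times. The AP-1 word TGANTCA, searched on both strands, occurred in ANKRD1 alone among the 7 genes, at -195, and in 7.71% of all windows. A CArG box, the site of serum response factor, was in none of the 9 windows and in 1.29% of all. None of these matches overlapped another motif. A match describes these letters and is no evidence of binding.

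YAP1 was the member that fell most. It stood at 86.2, 88.9 and 92.9 CPM in si-NC libraries 1 to 3 and at 47.0, 44.4 and 41.7 CPM in si-KNSTRN libraries 1 to 3. Every si-KNSTRN library was below every si-NC library, and the means were 89.3 ± 3.34 and 44.3 ± 2.65 CPM (SD, n = 3). The log2 fold change was -1.01 (SE 0.05), a fold of 0.497 with a 95% interval of 0.459 to 0.537 (adjusted p = 1.6e-10, edgeR). Among all 12650 tested genes, 62.5% were called at an adjusted p under 0.05, 31.2% higher and 31.3% lower, and YAP1 lay at the 3.34 percentile of all log2 fold changes. In these bulk libraries a lower level in each cell cannot be told apart from fewer cells that express the gene.

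WWTR1, whose protein TAZ shares its partners with YAP, did not pass the test. Its levels were 43.4, 44.7 and 41.6 CPM in si-NC and 40.2, 40.1 and 39.4 CPM in si-KNSTRN libraries, so that the groups lay close together but did not overlap, as was so for 67.3% of all tested genes (33.4% with si-KNSTRN higher, 33.9% lower). The fold was 0.922 with a 95% interval of 0.848 to 1.00 (adjusted p = 0.085, edgeR). WWTR1 was called lower with upper-quartile scaling (adjusted p = 0.023) and without si-NC library 3 (adjusted p = 0.043), by log2 fold changes of -0.16 and -0.14.

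Per length, the ratio of the coactivators did not overlap between the groups. WWTR1 over YAP1, each as CPM per kb of its longest coding transcript (GENCODE release 29), was 0.541, 0.539 and 0.481 in si-NC and 0.918, 0.969 and 1.01 in si-KNSTRN libraries. The log2 ratio was -0.94 ± 0.0956 in si-NC and -0.05 ± 0.0712 in si-KNSTRN (SD, n = 3), a difference of 0.89, with p = 0.10 in the exact two-sided permutation test, the smallest that 3 against 3 libraries allow. YAP1 was thus the more abundant of both by this scale in every si-NC library and in 2 of the 3 si-KNSTRN libraries. Their summed level was 25.1 ± 0.472 CPM per kb in si-NC and 16.1 ± 0.577 CPM per kb in si-KNSTRN.

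TEAD factors carry the DNA-binding domain of the complex. TEAD4 stood at 40.5, 38.4 and 36.5 CPM in si-NC and 43.5, 45.5 and 44.6 CPM in si-KNSTRN libraries, without overlap. On the log2 scale it rose by 0.21 (SE 0.06, adjusted p = 0.0060, edgeR), a fold of 1.16 with a 95% interval of 1.06 to 1.26. TEAD3 stood at 17.7, 16.5 and 16.7 CPM in si-NC and 19.2, 20.4 and 18.5 CPM in si-KNSTRN libraries, a rise of similar size (log2 fold change 0.19, SE 0.07, adjusted p = 0.036, edgeR). The TEAD3 call did not hold with upper-quartile scaling (adjusted p = 0.10) or DESeq2 (adjusted p = 0.11), with si-NC sample 2 or 3 left out (adjusted p = 0.10 and 0.072), nor with si-KNSTRN sample 1 or 2 left out (adjusted p = 0.062 and 0.16).

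TEAD1 stood at 25.7, 27.9 and 30.7 CPM in si-NC and 26.5, 29.6 and 26.9 CPM in si-KNSTRN libraries. The groups overlapped, and the fold was 0.986 with a 95% interval of 0.883 to 1.10 (adjusted p = 0.82, edgeR). Its sign depended on the scaling (log2 fold change -0.02, but 0.0154 with library size alone). TEAD2, outside the 10 genes, had levels of 19.7, 19.5 and 18.8 CPM in si-NC and 18.6, 21.3 and 21.3 CPM in si-KNSTRN libraries (adjusted p = 0.39, edgeR). Because TEAD1 has a long transcript, its part in the TEAD RNA pool depends on length. Per kb, TEAD4 made up 71.7% ± 1.39 of the summed level of TEAD1, TEAD3 and TEAD4 in si-NC and 73.0% ± 0.784 in si-KNSTRN (SD, n = 3), TEAD3 17.9% ± 0.337 and 18.0% ± 0.572, and TEAD1 10.5% ± 1.26 and 9.03% ± 0.295. The exact two-sided permutation test gave p = 0.20 for TEAD4, 0.80 for TEAD3 and 0.20 for TEAD1, where 0.10 is the smallest p possible. Counted by reads without length, TEAD4 had 46.1% and TEAD1 33.6% of the pool in si-NC. With TEAD2, at 7.91 CPM per kb in si-NC the second of the 4 TEAD genes, counted in the pool, the share of TEAD4 per kb was 57.4% in si-NC and 59.3% in si-KNSTRN.

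**Figure D1:**
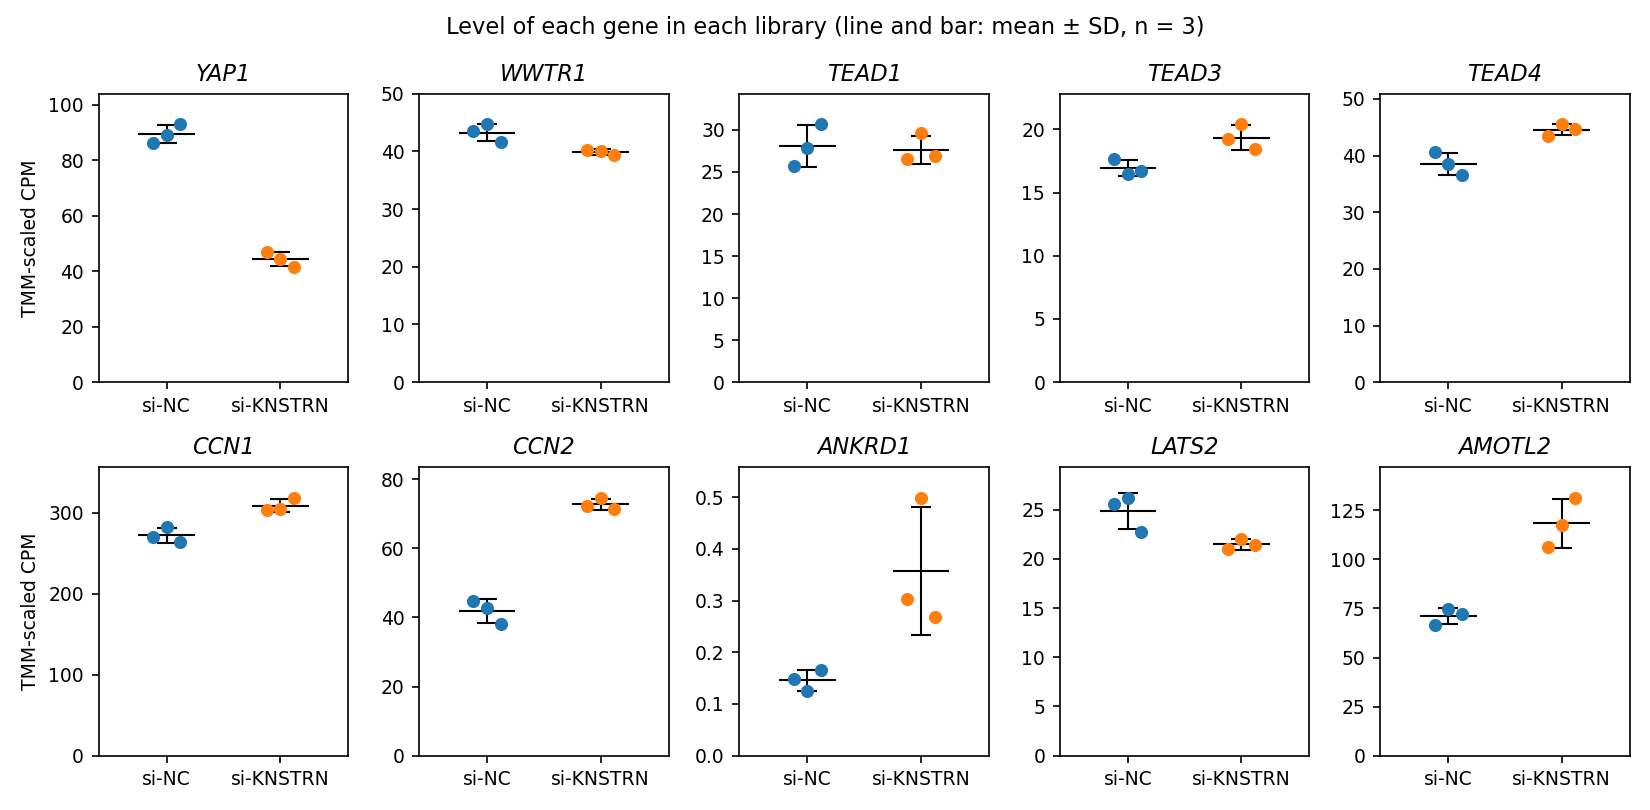
TMM-scaled CPM of the 10 genes in each library, with 1 panel per gene, a y axis from 0, si-NC in blue and si-KNSTRN in orange; points are libraries, lines and bars the mean ± SD (n = 3). YAP1 falls from about 89.3 to 44.3 CPM and CCN2 and AMOTL2 rise, while the groups of TEAD1 overlap.

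**Figure D2:**
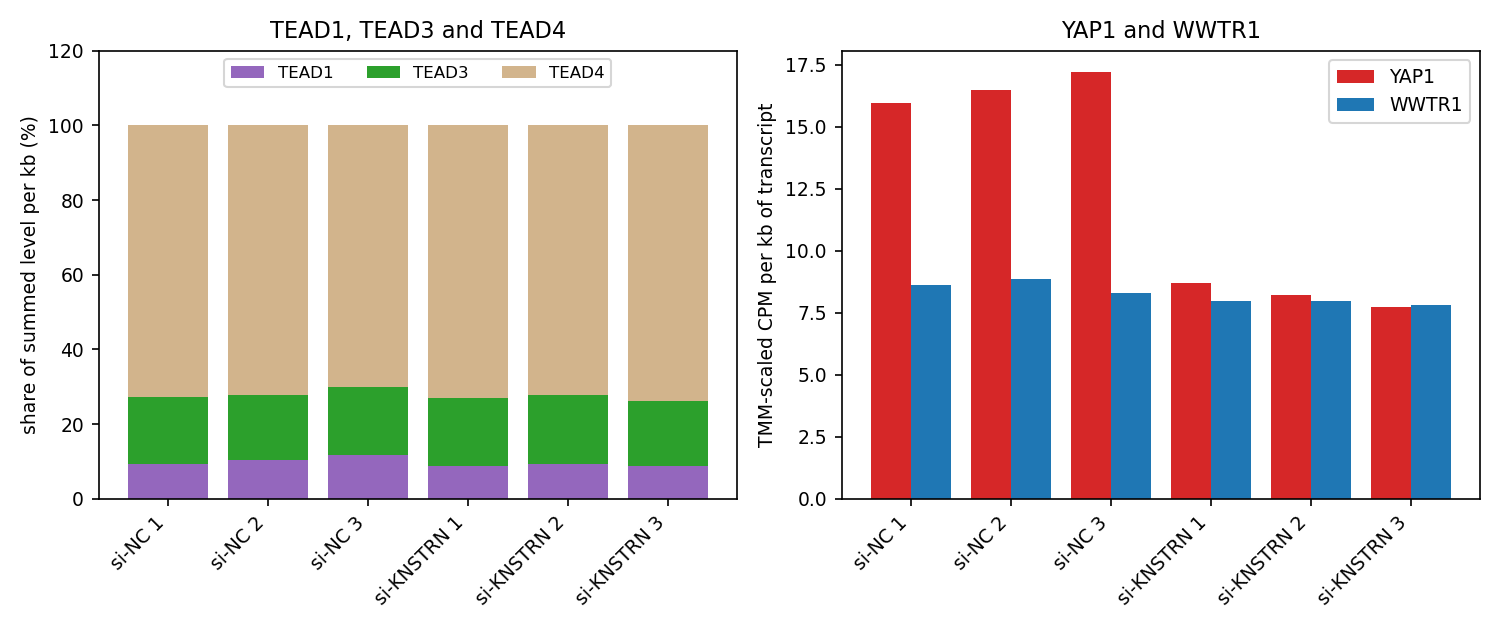
Left, share of TEAD1, TEAD3 and TEAD4 in their summed level per kb in each library, in percent; right, level of YAP1 and WWTR1 per kb in each library. TEAD4 has the largest share in every library, and YAP1, at 16.6 CPM per kb in si-NC, comes down to the level of WWTR1 in si-KNSTRN.

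Of the 4 target genes that could be tested, CCN2 rose most. CCN1 and CCN2 encode CYR61 and CTGF, secreted matrix proteins that bind integrins. CCN2 stood at 44.7, 42.9 and 38.0 CPM in si-NC and 72.1, 74.6 and 71.4 CPM in si-KNSTRN libraries. The groups were far apart, with means of 41.9 ± 3.46 and 72.7 ± 1.68 CPM (SD, n = 3) and a log2 difference of 0.79 (SE 0.06, adjusted p = 6.8e-09, edgeR), a fold of 1.73 with a 95% interval of 1.59 to 1.89. CCN1 stood at 269, 283 and 264 CPM in si-NC and 303, 305 and 318 CPM in si-KNSTRN libraries, the highest level of the 10 genes in either group. On the log2 scale it rose by 0.18 (SE 0.05, adjusted p = 0.0022, edgeR), a fold of 1.13 with a 95% interval of 1.06 to 1.21, a much smaller step than that of CCN2.

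ANKRD1, which encodes a nuclear ankyrin repeat protein of muscle and injured tissue, was at the edge of detection. Its reads numbered 3, 2 and 3 in the si-NC libraries, against 6, 9 and 5 after si-KNSTRN. No si-NC library was above 3 reads and every si-KNSTRN library was, but the gene did not pass the low-count filter and has no value in the main test. The pooled ratio of 20 to 8 reads, scaled to library size, was 2.42 with an exact 95% interval of 1.02 to 6.35, which covers counting error only. Without the filter the adjusted p was 0.083 by edgeR, and DESeq2 gave 0.21.

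The feedback genes went opposite ways. AMOTL2, an angiomotin that binds YAP and TAZ and holds them in the cytoplasm, stood at 66.8, 74.8 and 72.0 CPM in si-NC and 106, 118 and 131 CPM in si-KNSTRN libraries. The means were 71.2 ± 4.07 and 118 ± 12.5 CPM (SD, n = 3), and the log2 fold change was 0.74 with an SE of 0.07 (adjusted p = 8.1e-08, edgeR), a fold of 1.66 with a 95% interval of 1.51 to 1.84. LATS2, a kinase that inactivates YAP and TAZ, stood at 25.6, 26.2 and 22.7 CPM in si-NC and 20.98, 22.1 and 21.4 CPM in si-KNSTRN libraries. The groups did not overlap, though si-NC library 3 came close, and LATS2 fell by 0.21 on the log2 scale (SE = 0.07, adjusted p = 0.017, edgeR). That call did not hold with DESeq2 (adjusted p = 0.063) and was lost when the first or second si-NC sample was left out (adjusted p = 0.065 and 0.075) or the first of si-KNSTRN (adjusted p = 0.056).

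In all, 5 of the 9 members tested were higher (TEAD3, TEAD4, CCN1, CCN2 and AMOTL2), 2 were lower (YAP1 and LATS2) and 2 were not called. The share called, 77.8% of 9 genes, compares with 62.5% of all genes tested, and with so few genes nothing particular to them can be read from it. The median log2 fold change of the 9 was 0.18 and that of all tested genes -0.01, while the median absolute log2 fold change of all tested genes was 0.28. YAP1, CCN2 and AMOTL2 exceeded that size, and the other 6 lay below it.

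**Figure D3:**
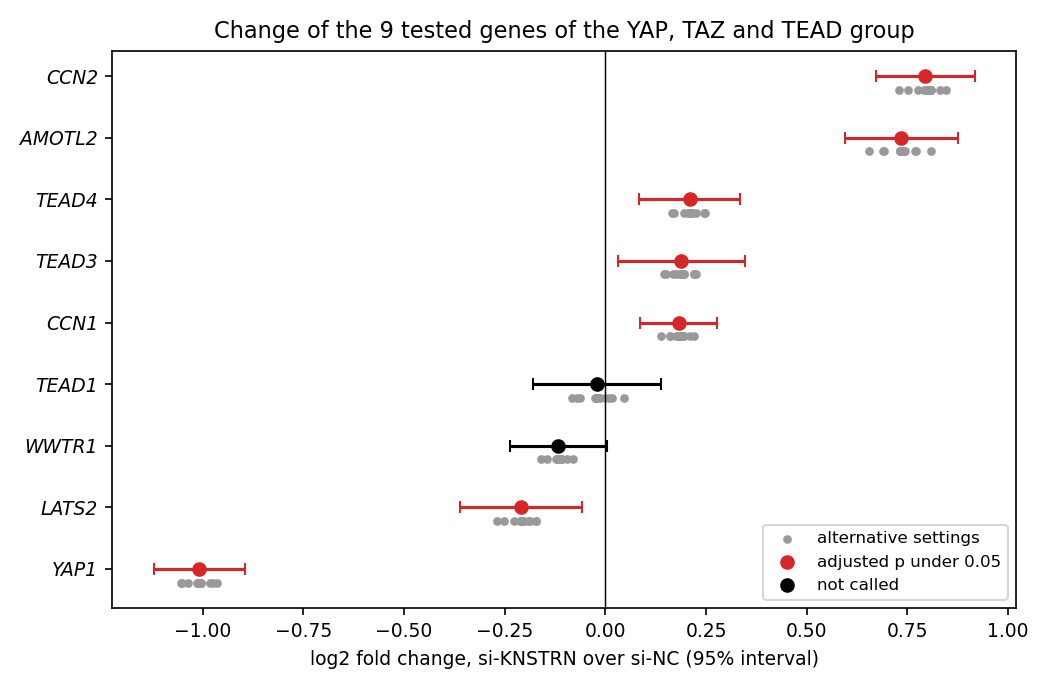
Log2 fold change of si-KNSTRN over si-NC for the 9 tested genes, with 95% intervals from edgeR; red marks an adjusted p under 0.05, black no call, and small grey points the alternative settings. YAP1 at -1.01 and CCN2 and AMOTL2 at 0.79 and 0.74 lie far from 0, and the interval of TEAD1 and its alternatives straddle 0.

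Levels of different genes were compared per kb of transcript. In si-NC the order was CCN1 (119 CPM per kb), TEAD4 (22.8), CCN2 (17.9), YAP1 (16.6), AMOTL2 (15.8), WWTR1 (8.60), TEAD3 (5.68), LATS2 (4.51), TEAD1 (3.31) and ANKRD1 (0.0736). Libraries of CCN2 and YAP1 overlapped there, as did those of YAP1 and AMOTL2. In si-KNSTRN, CCN2 reached 31.1 CPM per kb and came ahead of TEAD4 (26.4) and AMOTL2 (26.2), and YAP1 at 8.21 overlapped WWTR1 at 7.93.

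The genes upstream and beside the members were read from lists of textbook pathway members. In the Hippo kinase cascade, 9 of 20 genes were higher, 4 lower and 7 not called, with a median log2 fold change of 0.10. The share called, 65%, was near the 62.5% of all tested genes, of which 31.2% were higher and 31.3% lower. FRMD6, a scaffold that promotes Hippo signalling, had means of 75.9 ± 2.64 and 125 ± 9.26 CPM (SD, n = 3) and rose by 0.72 on the log2 scale (SE 0.06, adjusted p = 1.1e-08, edgeR). STK3, the gene of MST2, rose by a log2 fold change of 0.59, MAP4K4, a kinase that also phosphorylates LATS, by 0.34 and SAV1, the scaffold of the MST kinases, by 0.19. The SAV1 call did not hold without si-NC library 2 (adjusted p = 0.067) or si-KNSTRN library 2 (adjusted p = 0.052). The genes called lower were WWC3, of the family of the scaffold KIBRA, by 0.79 on the log2 scale, NF2, which encodes the membrane scaffold merlin, by 0.17, and MINK1 and TNIK, chosen after their values were seen, by 0.17 and 0.26. The TNIK call did not hold with library size alone (adjusted p = 0.064), with DESeq2 (adjusted p = 0.11) or without si-NC library 3 (adjusted p = 0.17). It was lost also without si-KNSTRN library 1 or 3 (adjusted p = 0.079 and 0.064). STK4, the gene of MST1, and LATS1, the paralog of LATS2, had log2 fold changes of 0.05 and -0.06 (adjusted p = 0.56 and 0.51).

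Genes whose products bind YAP, TAZ or TEAD or control YAP turnover numbered 5 higher and 5 lower of 13 tested (median log2 fold change 0.03), an even split as over all tested genes (31.2% higher, 31.3% lower). The share called was 76.9%, against 62.5% of all tested genes, and with 13 genes nothing particular to the list can be read from it. The angiomotin genes did not share one direction. AMOT stood at 16.01, 18.8 and 18.0 CPM in si-NC and 8.34, 7.98 and 9.58 CPM in si-KNSTRN libraries, a fall of 1.02 on the log2 scale (SE 0.10, adjusted p = 1.3e-07, edgeR), while AMOTL2 and AMOTL1 rose, the latter by 0.29. Of 3 related LIM proteins that bind LATS kinases, WTIP was higher and AJUBA and LIMD1 were lower. WTIP rose from 6.18 ± 0.583 to 22.4 ± 4.36 CPM and AJUBA fell from 64.7 ± 2.64 to 39.6 ± 3.99 CPM (SD, n = 3). LIMD1, named after its values were seen, fell by 0.22 on the log2 scale (adjusted p = 0.017, edgeR), a call lost with DESeq2 (adjusted p = 0.064) and without si-NC library 1 (adjusted p = 0.083) or si-KNSTRN library 1 (adjusted p = 0.061). VGLL4, a repressor that competes with YAP for TEAD, rose by a log2 fold change of 0.59. VGLL3, another TEAD cofactor, rose by 0.53, a call that did not hold with DESeq2 (adjusted p = 0.10) or without si-NC library 2 (adjusted p = 0.078) or si-KNSTRN library 2 (adjusted p = 0.053). PTPN14, a phosphatase that binds YAP, fell by 0.34 on the log2 scale.

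Further targets came from a published pan-cancer signature of YAP and TAZ, the 5 targets above left out. Of 16 tested, 4 were higher and 7 lower, with a median log2 fold change of -0.09, and the 68.8% called compare with 62.5% of all tested genes. PTPN14, given above with the binding genes, is also among these 7. AXL, a receptor tyrosine kinase, stood at 356, 370 and 351 CPM in si-NC and 129, 126 and 113 CPM in si-KNSTRN libraries. It fell by 1.55 on the log2 scale (SE 0.05, adjusted p = 6.4e-13, edgeR). MYOF, a membrane repair protein, fell from 1203 ± 19.6 to 806 ± 17.1 CPM and CCDC80, a matrix protein, from 35.0 ± 2.30 to 23.3 ± 0.740 CPM. GADD45A, a stress response gene also controlled by p53, rose from 55.8 ± 3.74 to 102 ± 13.9 CPM. The other genes called higher, chosen after their values were seen, were FOXF2, DOCK5 and CRIM1 with log2 fold changes of 0.65, 0.16 and 0.14. The DOCK5 and CRIM1 calls were the ones lost, with adjusted p of 0.069 and 0.16 under upper-quartile scaling, and CRIM1 lost its call also without si-KNSTRN library 3 (adjusted p = 0.23). With upper-quartile scaling 2 were higher in place of 4, and the same number, 2, was reached when si-NC sample 1, si-NC sample 2 or si-KNSTRN sample 2 was left out.

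STRIPAK, a phosphatase and kinase complex that restrains the MST kinases, had 7 of 15 tested genes higher and 3 lower (median log2 fold change 0.08). The share called was 66.7%, near the 62.5% of all tested genes. STRIP2 rose by 1.02, and the striatin genes STRN4 and STRN3 rose by 0.54 and 0.42 on the log2 scale. STK26, one of the kinases of the complex, fell from 4.10 ± 0.538 to 1.57 ± 0.324 CPM (SD, n = 3), while STRN and CTTNBP2NL (picked with their values in view) fell by 0.27 and 0.26 on the log2 scale. The STRN call did not hold without si-NC library 3 (adjusted p = 0.073) or si-KNSTRN library 2 (adjusted p = 0.051).

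Serum response factor (SRF) and its MRTF coactivators respond to actin and share targets such as CCN1 and CCN2 with YAP. In this list 10 of 16 tested genes were lower and 1 higher, with a median log2 fold change of -0.31. Of all tested genes 31.3% were lower and 31.2% higher, with a median of -0.01. VCL, the gene of the focal adhesion protein vinculin, stood at 552, 552 and 578 CPM in si-NC and 330, 325 and 286 CPM in si-KNSTRN libraries (log2 fold change -0.84, with adjusted p = 1.8e-09 by edgeR). ACTA2, FILIP1L and TPM2 fell by 1.45, 1.07 and 0.61 on the log2 scale. ACTA2 overlaps FAS in the genome, and reads of the 2 genes cannot be told apart without strand information. SRF itself fell by 0.34 and MRTFB by 0.51, both chosen after their values were seen, as was ACTB, the gene called higher (0.19). MRTFA, also named afterwards, had a log2 fold change of 0.10 (adjusted p = 0.16, edgeR) and was called higher without si-KNSTRN library 1 (0.15, adjusted p = 0.045). The mesenchymal markers, which fell together in si-KNSTRN libraries as given above, moved with this list, and their part in it was not tested.

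**Figure D4:**
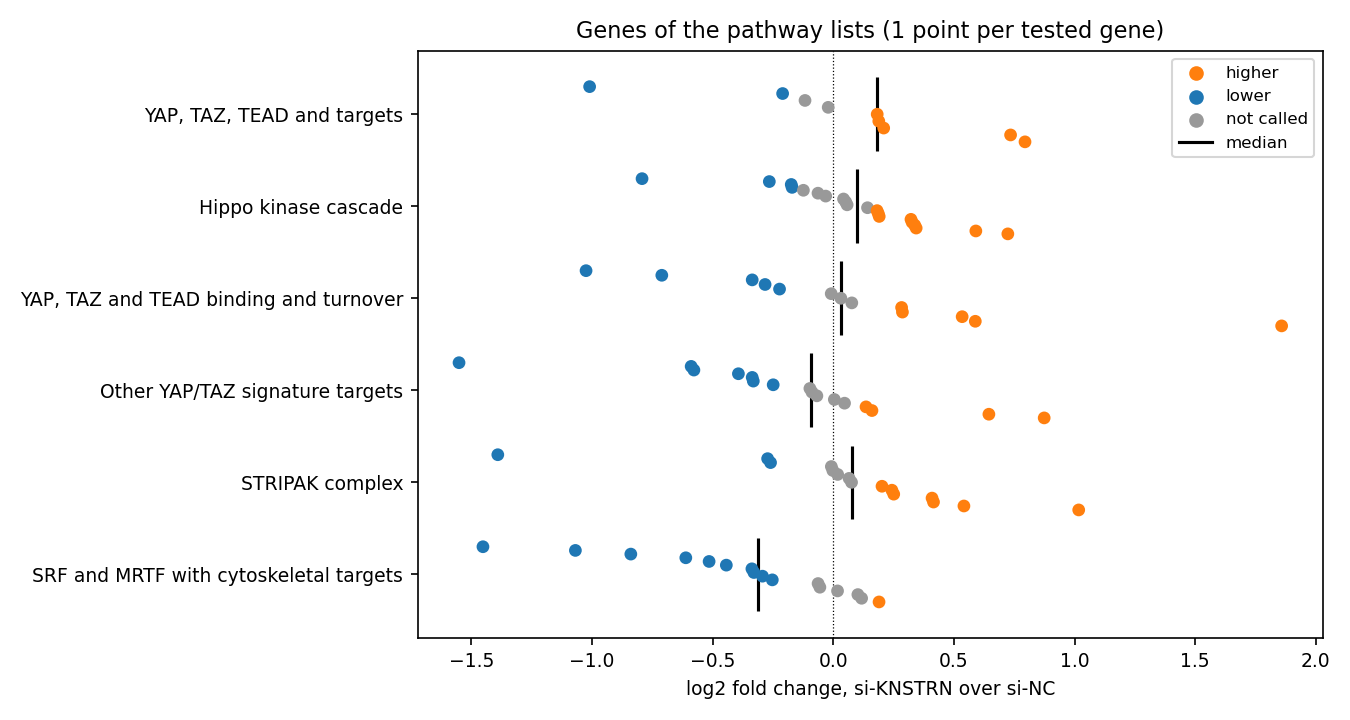
Log2 fold change of si-KNSTRN over si-NC for each tested gene of the group and of 5 pathway lists, with 1 point per gene spread vertically for legibility, colour for the call by edgeR and a black line for the median of the list. Points lie on both sides of 0 in every list, and the SRF and MRTF list has its median furthest from 0, at -0.31.

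Relatives of the members outside the angiomotins were not called. CCN3, another matrix protein of the CCN family, had a log2 fold change of 0.35 (adjusted p = 0.12, edgeR), and CCN4, CCN5, CCN6 and ANKRD2 did not pass the low-count filter.

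In the 3′ untranslated region (UTR) of the longest coding transcript, 4 of the members hold the word TGAGTA, and genes with this word were lower in si-KNSTRN more often across the table. Of 3675 tested genes with it, 40.4% were called lower and 23.2% higher (median log2 fold change -0.10), and of 8597 without it 27.6% and 35.0% (0.04). Genes with the word also had longer 3′ UTRs, with a median of 2963 against 854 bases, and genes of like length were not compared. The word was chosen with earlier results of these data known, so these shares describe the data and test no link. The sites of YAP1, LATS2 and TEAD1 are printed with the word in capitals and 12 bases on each side, 5′ to 3′ on the strand of the transcript, because YAP1 and LATS2 are the members called lower and TEAD1 holds the word at 2 sites. Sequences are from GENCODE release 29 transcripts and coordinates of the word are on GRCh38.
YAP1, chr11:102231220-102231225, 3′ UTR: attggaattcagTGAGTAggttcataatgt
LATS2, chr13:20973447-20973452, 3′ UTR: gtgatttatattTGAGTAaaaagttcaatt
TEAD1, chr11:12938158-12938163, 3′ UTR: tttttattaagaTGAGTAaatatttgaacc
TEAD1, chr11:12942332-12942337, 3′ UTR: ggtttaccgggaTGAGTAaccaaccacagg

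YAP1 and LATS2, both called lower, and WWTR1 and TEAD1, not called, carry the word. The 6 members without it are the 5 called higher and ANKRD1. By 3′ UTR length the members divide the same way, at 1838 (LATS2) to 7261 bases (TEAD1) with the word. Without it the range is 195 (TEAD4) to 1828 bases (AMOTL2), and the part of length was not tested. The longer word CTGAGTAA, whose carriers had the lowest median log2 fold change (-0.18, 434 genes), is in none of the 10. YAP1 holds TGAGTA without either flanking base of that word, a class of 1227 genes with a median of -0.05, and LATS2 and TEAD1 hold TGAGTAA, a class of 799 genes with a median of -0.14. The median 3′ UTR length was 3637.5 bases for CTGAGTAA, 2863 for TGAGTAA and 2524 for TGAGTA alone. The class of CTGAGTA without the last base had 1215 genes, a median log2 fold change of -0.11 and a median length of 3320 bases. These medians describe whole classes and not single genes, and the place of YAP1 within its class was not tested. The pathway lists differed among themselves in this split. In the kinase cascade none of 6 carriers and 4 of 14 other genes were lower. In the remaining lists carriers were lower in a larger share, with 4 of 7 against 1 of 6 among binding and turnover genes and 4 of 6 against 3 of 10 among signature targets. The counts were 3 of 11 against 0 of 4 in STRIPAK and 4 of 5 against 6 of 11 in the SRF and MRTF list. PTPN14, a carrier called lower, counts in both the binding and the signature list. Called higher were 3 of 6 carriers and 6 of 14 other genes in the kinase cascade. Those counts were 2 of 7 and 3 of 6 among binding genes and 1 of 6 and 3 of 10 among signature targets. In STRIPAK they were 3 of 11 and 4 of 4, and in the SRF and MRTF list 0 of 5 and 1 of 11. No difference within a list was tested. Of the genes named for the 4 smallest p of a list and called lower, AXL, AMOT, CCDC80, STK26 and VCL hold the word. WWC3, MYOF, AJUBA, ACTA2, FILIP1L and TPM2, named by the same rule and also called lower, do not. The sequence of the siRNA is not given in the sources used here, and the part of the word in these changes was not tested.

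**Figure D5:**
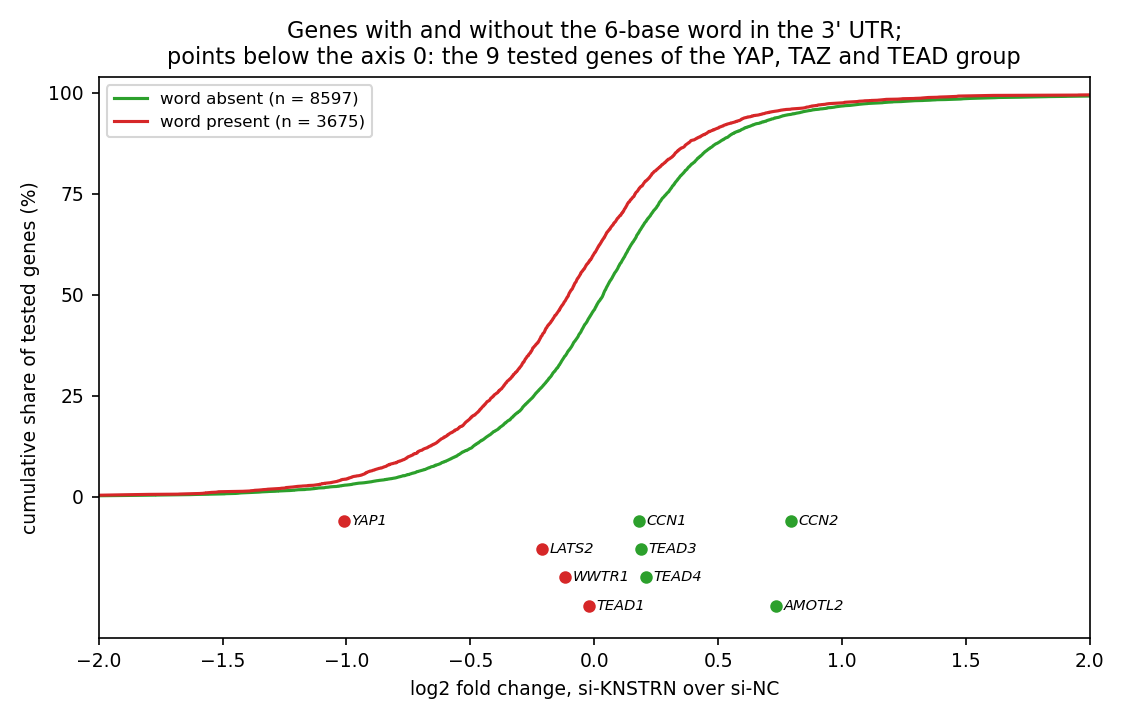
Cumulative share of tested genes by log2 fold change of si-KNSTRN over si-NC, for genes with (red, 3675) and without (green, 8597) the 6-base word in the 3′ UTR; labelled points below the curves mark the 9 tested members at their log2 fold change, in the same colours, with heights chosen for legibility. YAP1 and LATS2, called lower, are red and the 5 members called higher are green, while the red WWTR1 and TEAD1 were not called and TEAD1 lies at -0.02. The red members also have longer 3′ UTRs than the green ones, and the word was chosen with earlier results of these data known.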

How the data were processed

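T24 RNA libraries of 2 groups were compared, si-NC and si-KNSTRN with 3 libraries each, grouped by their titles. The deposited values are raw read counts per gene, which per the submitters' processing notes were made with HISAT2 2.0.1, featureCounts, fastp 0.20.0 and FastQC 0.11.5 on GRCh38. Not given in the sources used here are the strand setting, the annotation release and the treatment of reads with several alignments. In R 4.3.3, edgeR 4.0.16 (filterByExpr with a minimum count of 10, TMM, two-sided quasi-likelihood test, group as the sole term) was fitted to 12650 genes, with Benjamini-Hochberg adjustment over all of them. The standard error is the log2 fold change over the root of the F statistic, and 95% intervals use the test's degrees of freedom. The edgeR p-values set the difference of the groups against the spread between these libraries of T24 cells, 3 per group.

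The members, the gene lists and the TGAGTA word were chosen with earlier results of these data known. Named genes were KNSTRN, the members, the 4 smallest p of each list and 12 pathway genes. ACTB, FOXF2, DOCK5, CRIM1, TNIK, MINK1, STRN, CTTNBP2NL, SRF, MRTFB, MRTFA and LIMD1 were added after their values were seen. Symbols were matched to GENCODE 29 through current or older names (19198 found), and a 3′ UTR of at least 50 bases was available for 12272 tested genes. The site sequence of 1 member is not reported here. Python 3.11.15 with scipy 1.17.1 and matplotlib 3.10.9 was used for levels per kb, exact tests and figures. The edgeR step was checked on simulated counts of the si-NC and si-KNSTRN design (12642 genes), with 8 false calls. It recovered 54% of simulated 1.25-fold changes and 96% of 1.5-fold changes. Every simulated gene had the same dispersion, so the rate of false calls in the real libraries may differ. Replicate pairs differed by a chi-square per degree of freedom of 2.21 to 10.7, and none was merged. The largest values, 10.7 and 7.25, were those of si-KNSTRN library 3 against libraries 1 and 2. All other pairs lay at 2.21 to 4.49. Alternatives were other scalings, DESeq2 1.42.0, limma-voom (limma 3.58.1), other filters, a stricter threshold, the replicate number as a block and each library left out. Levels over the length of all exons, and TEAD2 in the TEAD pool, are settings chosen after seeing the data.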

Additional observations from a re-analysis of the deposited data

How the results depend on the processing

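YAP1, TEAD4, CCN1, CCN2 and AMOTL2 kept direction and call under all 15 alternatives, with log2 fold changes of -1.05 to -0.97, 0.17 to 0.25, 0.14 to 0.22, 0.73 to 0.85 and 0.66 to 0.81. Members called lower numbered 1 instead of 2 with DESeq2 and at an adjusted p under 0.01, and 1 to 3 with a library left out; those called higher numbered 4 or 5. TEAD1, never called, ranged from -0.0840 to 0.0471 with a library left out and changed sign with library size alone (0.0154), without si-NC library 3 (0.0471) and without si-KNSTRN library 1 (0.0091) or 3 (6.3e-05). STK4 changed sign without the second si-NC library (-0.0045). STK4 was called higher (0.160) without si-NC library 3 (adjusted p = 0.032). Of 615 settings over the 41 other named genes, 32 lost a call, all in CRIM1, DOCK5, TNIK, STRN, SAV1, VGLL3 and LIMD1. These settings include the main fit of each gene read at an adjusted p under 0.01, which is no refit. The share of TEAD3 in the TEAD pool, 0.077 percentage points higher in si-KNSTRN, ranged from -0.118 to 0.405 with a library left out, with -0.112 and -0.0562 among its negative values. The causes were not tested. Further signature targets called higher numbered 2 instead of 4 with upper-quartile factors and at an adjusted p under 0.01.

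Replicate numbers did not pair the libraries: deviations of same-numbered libraries correlated by -0.06, 0.05 and -0.03. With the replicate number as a block, KNSTRN had a log2 fold change of -1.62, 4 members were higher and 2 lower, and TEAD3 lost its call (adjusted p = 0.056). Over the 3 pairs, exact sign flips gave p = 0.25 for the log2 ratio of WWTR1 to YAP1 (0.89) and for the shares of TEAD1 and TEAD4 (-1.42 and 1.34), the smallest possible, and p = 1 for TEAD3. Read depth limits ANKRD1, with at most 9 reads per library.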
